A study of Mus musculus with 28 samples.

Results

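The 35 genes described here encode the homologous recombination and Fanconi anaemia repair machinery, and were picked by gene symbol from a table of 25124 genes. They cover the BRCA complexes, the strand invasion factors (Rad51ap1, Rad51b, Rad51c, Rad51d, Xrcc2, Xrcc3, Rad54l and Rad54b), the proteins that sense and resect breaks, the Fanconi core complex with its ubiquitin enzyme, the FANCD2-FANCI complex with its downstream proteins, the checkpoint kinases, and the mismatch repair protein MSH6. Their RNA was measured by sequencing bulk CD4+ T cells sorted from mouse small intestinal lamina propria (live, CD45+, CD90.2+, TCRb+, CD4+). All mice carried the T-bet-ZsGreen reporter, a green fluorescent marker for the Th1 factor T-bet. Housing was specific-pathogen-free (SPF), where the gut holds bacteria, or germ-free (GF), where it holds none, and the mice received aCD3, an antibody to the CD3 part of the T cell receptor, or an isotype control antibody. There are 28 libraries, named below by sex letter and number. SPF isotype and SPF aCD3 have 6 each, with 3 from each sex. GF isotype has 10, with 5 from each sex, and GF aCD3 has 6, of which 1 is female. Age, dose and time after injection are not given in the sources used here.

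Homologous recombination repairs a broken chromosome by copying the sister chromatid, and is therefore used mainly in S and G2 phase, when that copy exists. Ends are trimmed to single strands, BRCA1, BARD1, PALB2 and BRCA2 prepare them for strand invasion, and the matching sequence is found and copied. The Fanconi pathway senses crosslinks between DNA strands, attaches ubiquitin to FANCD2 and FANCI, and passes the opened lesion to nucleases and to recombination. T cells answering their receptor divide quickly, and transcripts of many of these genes are known to follow the cell cycle through E2F and related promoter factors.

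The promoters of the members with the largest responses are printed because such cell cycle elements can be looked for in them. Each line gives the 130 bases before the RefSeq start, 5′ to 3′ on the gene's strand, on GRCm38.p6, the assembly of mm10. Capitals mark a CCAAT box (CCAAT, or ATTGG on the other strand), the element bound by the factor NF-Y. The windows lie at chr6:126939588-126939717 for Rad51ap1, chr11:101551956-101552085 for Brca1, chr9:36726659-36726788 for Chek1, chr4:116123690-116123819 for Rad54l, chr9:53536672-53536801 for Atm and chr13:63431746-63431875 for Fancc, all on the minus strand. The first 4 belong to the largest rises after aCD3 and the last 2 to large falls.
Rad51ap1: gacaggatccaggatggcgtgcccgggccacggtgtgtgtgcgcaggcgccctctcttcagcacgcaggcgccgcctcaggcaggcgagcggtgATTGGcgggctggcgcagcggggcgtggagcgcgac
Brca1: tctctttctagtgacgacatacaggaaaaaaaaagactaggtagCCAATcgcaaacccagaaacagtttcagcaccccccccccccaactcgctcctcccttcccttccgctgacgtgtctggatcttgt
Chek1: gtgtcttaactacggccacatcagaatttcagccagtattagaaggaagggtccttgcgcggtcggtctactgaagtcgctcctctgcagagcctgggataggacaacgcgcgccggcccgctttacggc
Rad54l: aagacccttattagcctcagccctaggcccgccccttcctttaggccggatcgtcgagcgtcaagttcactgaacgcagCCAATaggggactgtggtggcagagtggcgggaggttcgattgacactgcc
Atm: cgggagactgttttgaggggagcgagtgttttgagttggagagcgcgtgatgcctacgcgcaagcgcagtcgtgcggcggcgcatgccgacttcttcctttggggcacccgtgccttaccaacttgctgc
Fancc: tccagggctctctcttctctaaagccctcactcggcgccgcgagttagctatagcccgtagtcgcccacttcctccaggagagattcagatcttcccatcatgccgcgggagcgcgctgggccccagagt

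The printed stretches of Rad51ap1, Brca1 and Rad54l held a CCAAT box, and those of Chek1, Atm and Fancc held none. Atm and Fancc each had one farther upstream, beyond the printed bases. A window of 250 bases before to 50 after the start was given for 28 members. Rad51d, Xrcc2, Rad54b, Rad50, Nbn, Exo1 and Fancd2 are named only. In these windows 3 elements were searched on both strands: the E2F element TTTNNCGC with each N being G or C, the CCAAT box, and the cell cycle homology region TTTGAA. An E2F element was found in 6 of 28 members (21.4%), in Bard1, Brca2, Rad51c, Fancg, Chek2 and Msh6, against 4.35% of the windows of 9186 tested genes and 2.26% of 32851 RefSeq windows. A CCAAT box was found in 19 members (67.9%), against 38.9% of tested genes and 37.4% of RefSeq windows. The homology region was found in 2 members (7.14%), against 12.2% of tested genes and 17.9% of RefSeq windows. These matches only describe letters in a window, and the lack of one says nothing about a factor.

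**Figure D1:**
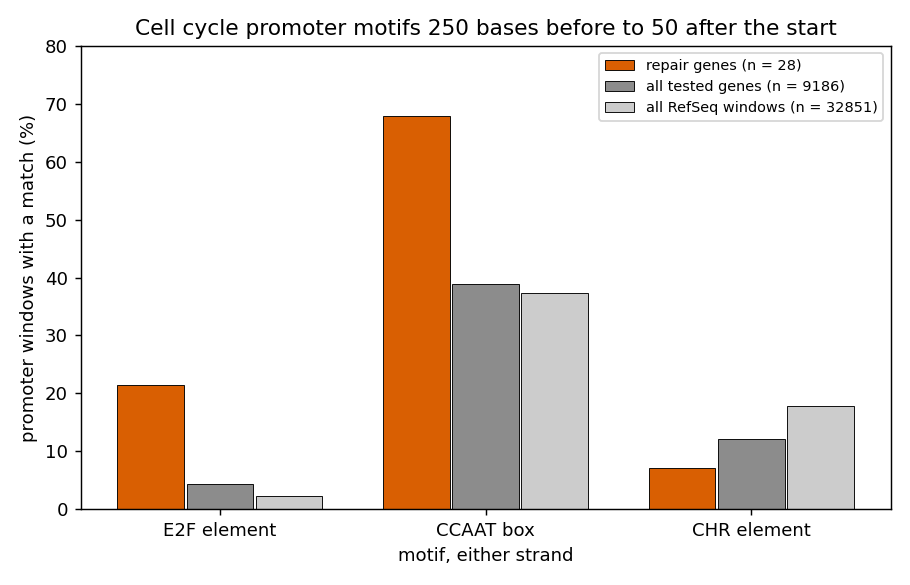
Share of promoter windows, 250 bases before to 50 after the start, that hold each of 3 motifs on either strand. Bars are 28 repair genes, 9186 tested genes and 32851 RefSeq windows; the repair genes stand at 21.4% for E2F and 67.9% for CCAAT, above both backgrounds, and at 7.14% for the homology region, below both.

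The libraries held from 6765531 to 17860611 reads in genes, and the 35 members together drew from 6397 to 18714 reads per library. Values are TPM, a transcript level scaled for gene length and library total, computed by the authors over the whole genomic span of a gene, introns included, so that levels are compared between groups and not between genes. The sorted identity was checked on 10 CD4 T cell genes, all above 1 TPM in every library, with Cd4 itself from 165.8 to 274.9 TPM. Histone genes took 4.05% to 7.04% of TPM in SPF isotype and 23.8% to 26.8% in SPF aCD3. TPM is relative to each library's total, and the median of 12182 tested genes moved by -0.35 on the log2 scale between these groups. Calls of members in each comparison are therefore counted on the deposited TPM and again after median-of-ratios scaling, which brought that median to -0.01. Calls come from limma on log2(TPM + 1) over all 28 libraries with a sex term, with a Benjamini-Hochberg adjusted p under 0.05. In such bulk samples, fewer cells with a transcript and less of it per cell cannot be told apart.

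In SPF mice, aCD3 went with higher transcript levels of most of the 34 members tested and lower levels of a smaller set. Of 35 members 34 passed the filter on low values (1 TPM or more in 6 or more libraries). Of these, 19 rose, with ratios of mean TPM from 1.49 to 7.79, where 14.2% of all tested genes rose. Another 8 fell, with ratios from 0.439 to 0.779, where 50.7% of all tested genes fell. The members' median change was 0.56, against -0.35 for all tested genes. After median-of-ratios scaling 23 rose (30.2% of all tested genes) and 5 fell (29.8%), with a median of 0.85. A voom fit on reads recovered from TPM and length called 24 of 35 higher (28.6% of 13396 genes) and 5 lower (29.1%). The same 19 rises and the same 5 falls, of Nbn, Fancc, Fancl, Fan1 and Atm, stood in all 3 fits. In 18 members every SPF aCD3 library lay above every SPF isotype library (8.57% of tested genes), and in 5 below (33.4%). The share of members that rose thus stood above the background in every scaling, and the share that fell below it. The counts by role given below are to be read against the same shares of all tested genes.

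**Figure D2:**
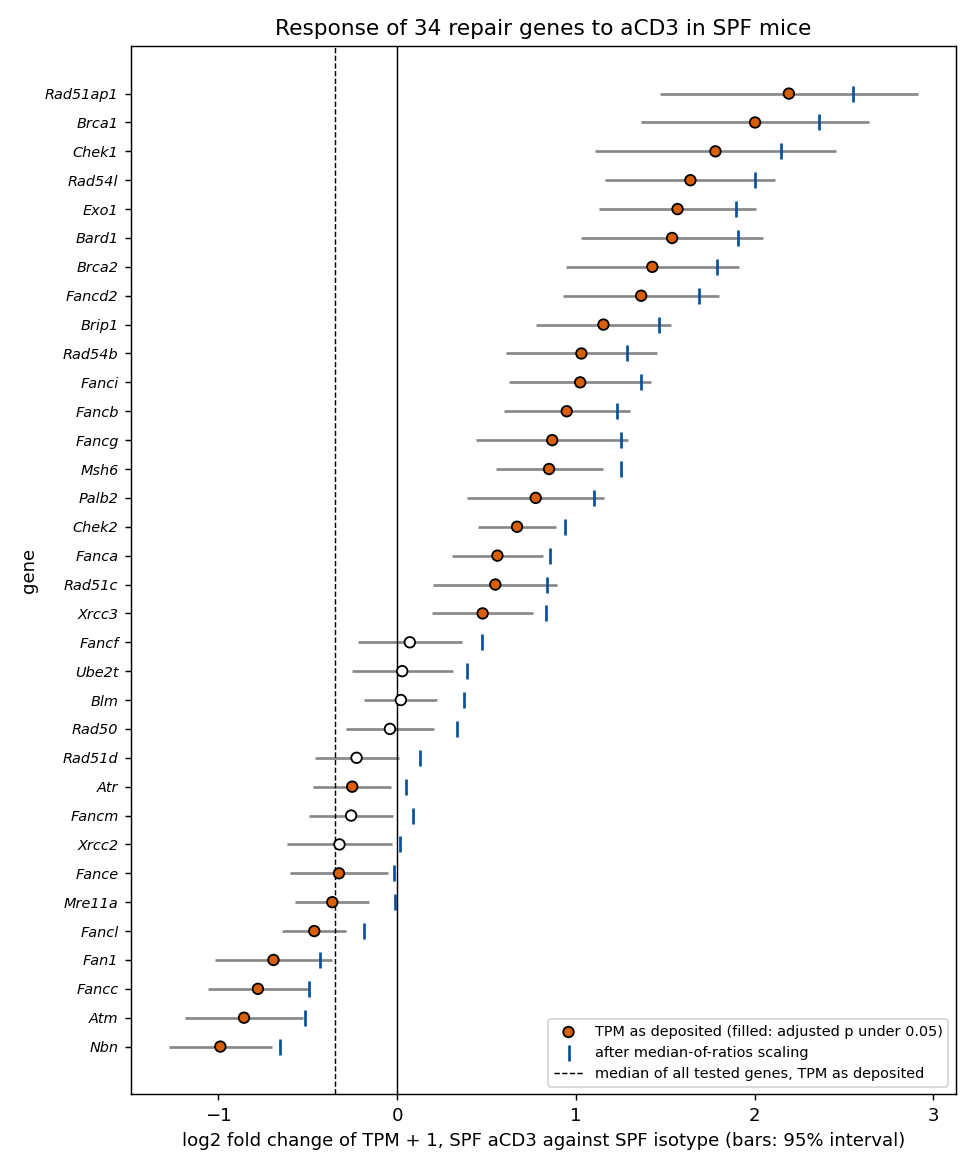
Log2 fold change of TPM + 1 in SPF aCD3 against SPF isotype for 34 members, with 95% intervals; filled points have an adjusted p under 0.05, blue ticks are the values after median-of-ratios scaling, and the dashed line is the median of all tested genes at -0.35. Rad51ap1 stands highest at 2.19 and Nbn lowest at -0.99.

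All 4 genes of the BRCA complexes rose in SPF mice. Brca1 (chr11:101488764-101551955), whose product pairs with BARD1 as a ubiquitin ligase and directs breaks into recombination, ran from 0.757 through a median of 1.35 to 1.63 TPM in the 6 isotype libraries. It ran from 6.96 through 7.90 to 9.92 TPM in the 6 aCD3 libraries. Its mean rose 6.36-fold, from 1.27 ± 0.299 to 8.07 ± 1.04 TPM (SD, n = 6 each), a change of 2.00 on the log2 scale (SE 0.31, limma adjusted p = 1.19e-05), and the groups did not overlap. Bard1 (chr1:71027535-71102972), the partner that stabilises BRCA1, ran from 1.89 through 2.56 to 3.72 TPM under isotype and from 7.68 through 9.66 to 11.3 TPM under aCD3. Its log2 fold change was 1.54 (SE 0.25, adjusted p = 1.66e-05). Here too every aCD3 library lay above every isotype library.

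Brca2 (chr5:150522621-150570146), which acts on resected DNA, ran from 1.63 through 2.05 to 2.38 TPM under isotype and from 5.79 through 7.02 to 8.56 TPM under aCD3. The fit gave a log2 fold change of 1.43 (SE 0.24, adjusted p = 2.08e-05). Palb2 (chr7:122111572-122132946), the bridge between BRCA1 and BRCA2, ran from 1.24 through 1.83 to 2.62 TPM under isotype and from 2.89 through 3.86 to 5.18 TPM under aCD3. It rose less, by 0.78 (SE 0.19, adjusted p = 0.00083). Neither gene's groups overlapped. The voom fit on reads gave fold changes of 8.81 for Brca1, 4.93 for Bard1, 4.73 for Brca2 and 2.80 for Palb2.

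**Figure D3:**
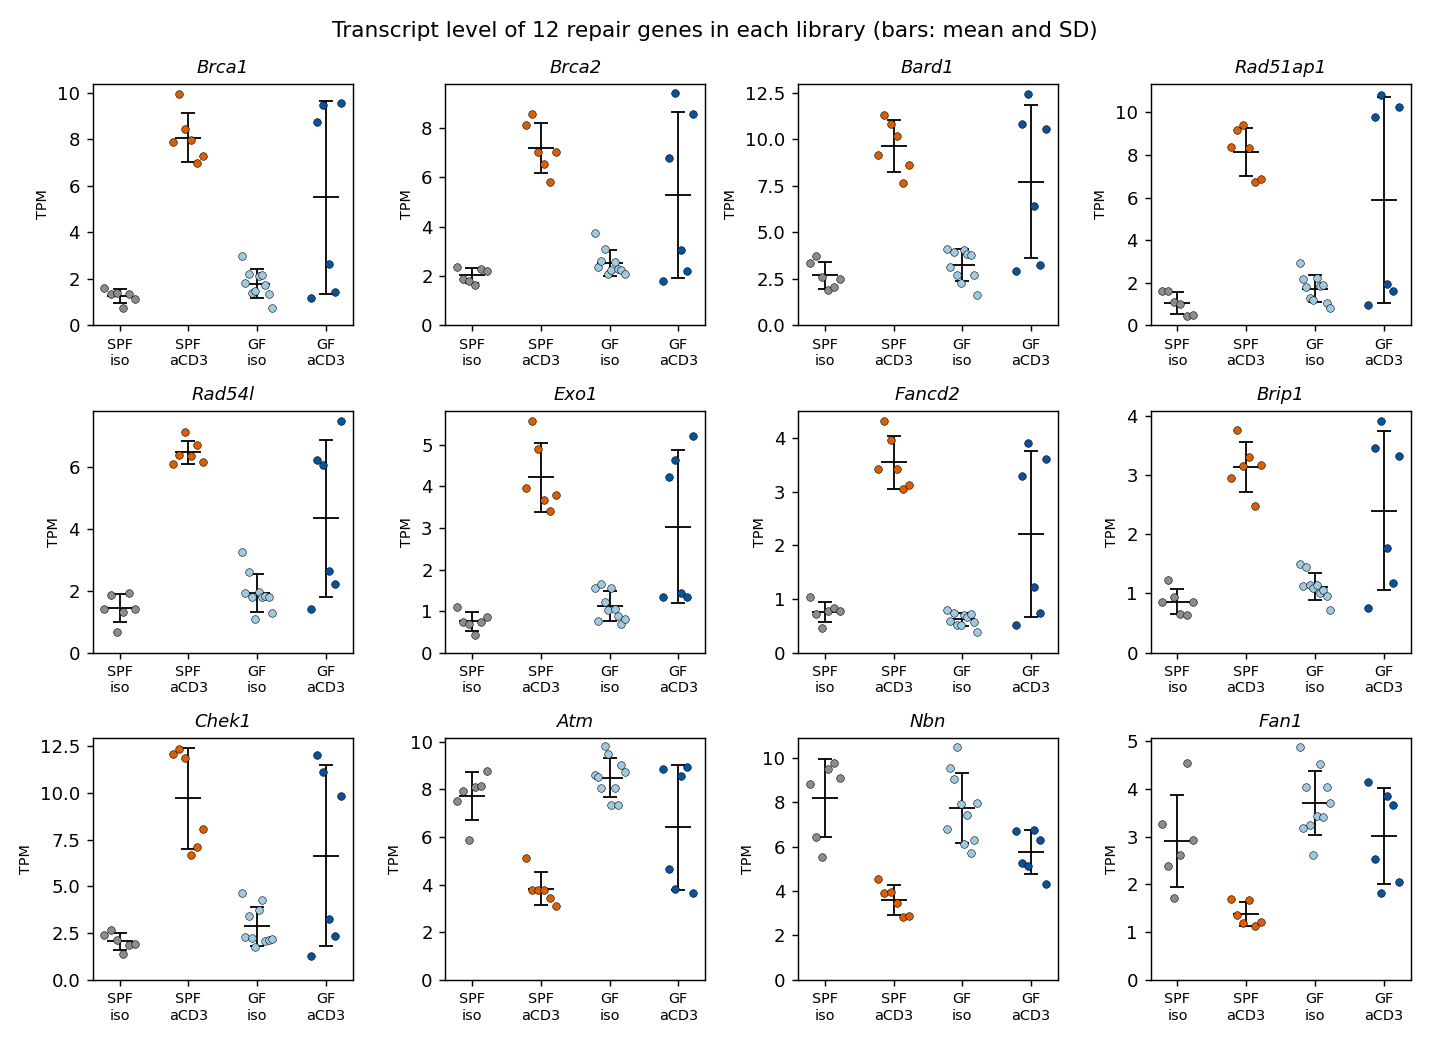
TPM of 12 members in each of 28 libraries (points), with the mean and SD of each group (bars), on axes that start at 0. In Brca1 the 6 SPF aCD3 libraries stand between 6.96 and 9.92 TPM and the 6 SPF isotype libraries at or below 1.63, while the GF aCD3 libraries spread from 1.18 to 9.56.

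Among the strand invasion factors, 5 of 7 tested members rose in SPF mice and none fell by the threshold, in TPM and after scaling. Rad51ap1 (chr6:126923416-126939587), a DNA-binding cofactor of strand pairing, had the largest change of all 34 members tested. It ran from 0.435 through 1.05 to 1.64 TPM under isotype, where it drew 12 to 45 reads, and from 6.75 through 8.35 to 9.40 TPM under aCD3. This was a log2 fold change of 2.19 (SE 0.35, adjusted p = 1.61e-05), a 7.79-fold ratio of means, without overlap. Rad54l (chr4:116096955-116123689), the motor that remodels DNA during strand invasion, ran from 0.662 through 1.41 to 1.93 TPM under isotype and from 6.10 through 6.38 to 7.14 TPM under aCD3. On the log2 scale it changed by 1.64 (SE 0.23, adjusted p = 5.33e-06). The 6 aCD3 libraries were close together, with an SD of 0.387 TPM.

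Rad54b, a relative of Rad54l, rose with a log2 fold change of 1.03 (adjusted p = 0.000144) and a ratio of mean TPM of 4.79, against 4.51 for Rad54l, but 28.2% of its span is shared with another gene, Fsbp, on the same strand, so its reads are uncertain. Rad51c and Xrcc3, which pair in one paralog complex, rose by 0.55 (adjusted p = 0.00634) and 0.48 (adjusted p = 0.00381). Rad51d and Xrcc2, which belong to the other paralog complex, did not pass: their changes were -0.23 (adjusted p = 0.0838) and -0.32 (adjusted p = 0.0517) in TPM, and 0.13 and 0.02 after scaling. Rad51b, at most 0.965 TPM in any library over a span of 211303 bases, was under the filter. In the voom fit it was 2.27-fold higher (adjusted p = 0.0052), with 96 to 144 reads under isotype and 136 to 287 under aCD3, ranges that overlap.

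Of the 5 genes that sense, trim and unwind broken ends, 1 rose, 2 fell and 2 did not pass in TPM. Exo1 (chr1:175880778-175911396), the exonuclease of long-range resection, ran from 0.421 through 0.728 to 1.09 TPM under isotype and from 3.41 through 3.88 to 5.56 TPM under aCD3. Its log2 fold change was 1.57 (SE 0.21, adjusted p = 4.47e-06), with no overlap. Of the 3 subunits of the MRN complex, the first sensor of a break, Nbn fell in all 3 fits. Nbn (chr4:15957967-15992589), the subunit that recruits ATM, ran from 5.52 through 8.95 to 9.77 TPM under isotype and from 2.81 through 3.69 to 4.52 TPM under aCD3. The fit gave a log2 fold change of -0.99 (SE 0.14, adjusted p = 5.75e-06), and -0.65 after scaling, and all aCD3 libraries lay below all isotype libraries.

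Mre11a, the nuclease of MRN, fell by 0.36 in TPM (adjusted p = 0.003) but stood at -0.01 after scaling, where it did not pass. Rad50, its clamp, stood at -0.04 (adjusted p = 0.78) in TPM and passed as higher after scaling, at 0.34. Blm, the helicase that dissolves recombination intermediates, stood at 0.02 (adjusted p = 0.86) in TPM and passed as higher after scaling, at 0.38. For these 3 genes the scaling sets the call. Nbn was the MRN subunit lower in both.

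The Fanconi core complex, together with UBE2T, ubiquitinates FANCD2 and FANCI. Of its 9 members, UBE2T included, 3 rose (14.2% of all tested genes), 3 fell (50.7%) and 3 did not pass in TPM. After scaling 5 rose (30.2%) and 2 fell (29.8%). Fancb (chrX:164980592-164997272), a subunit of the catalytic module, ran from 0 through 0.922 to 1.19 TPM under isotype, with 0 reads in the library F2, and from 1.49 through 2.48 to 3.33 TPM under aCD3. This was a log2 fold change of 0.95 (SE 0.17, adjusted p = 4.9e-05), without overlap. Fancg (chr4:43002337-43010301), a scaffold that binds FANCA, ran from 3.09 through 6.49 to 11.04 TPM under isotype and from 7.75 through 12.8 to 16.5 TPM under aCD3. On the log2 scale it changed by 0.87 (SE 0.21, adjusted p = 0.000769), and the groups overlapped, since the isotype library F2 at 11.04 TPM lay above the aCD3 libraries M1 at 7.75 and M2 at 10.1. Fanca rose by 0.56 (adjusted p = 0.000352), although 4.58% of its span is shared with Zfp276 on the other strand.

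Against these, Fancc (chr13:63304709-63431745), a subunit that joins FANCE and FANCF, ran from 2.87 through 3.82 to 5.72 TPM under isotype and from 1.58 through 1.88 to 2.27 TPM under aCD3. Its log2 fold change was -0.78 (SE 0.14, adjusted p = 3.48e-05) and -0.49 after scaling, without overlap. Fancl, the E3 ligase subunit itself, fell by 0.46 (adjusted p = 7.93e-05) in TPM and by 0.19 after scaling (adjusted p = 0.0231). Fance fell by 0.32 (adjusted p = 0.0371) in TPM and stood at -0.02 after scaling. Fancf and Ube2t stood at 0.07 and 0.03 in TPM and passed as higher after scaling, at 0.48 and 0.39. The Fancf row spans 1690 bases, of which 14.9% are shared with Gas2 on the other strand. Fancm, the motor that binds stalled forks, stood at -0.26 (adjusted p = 0.0505) and 0.09 after scaling. Its call lay at the threshold and its sign depended on the scaling.

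Downstream of the core, 3 of 4 genes rose and 1 fell in both scalings. Fancd2 (chr6:113531682-113597020), the ubiquitinated clamp, ran from 0.462 through 0.772 to 1.04 TPM under isotype and from 3.05 through 3.42 to 4.31 TPM under aCD3. The fit gave a log2 fold change of 1.37 (SE 0.21, adjusted p = 1.22e-05). Fanci, its clamp partner, rose by 1.02 (SE 0.19, adjusted p = 7.8e-05), with 6.96% of its span shared with Polg on the other strand. Brip1 (chr11:86058136-86201193), a helicase bound by BRCA1 and also known as FANCJ, ran from 0.643 through 0.862 to 1.23 TPM under isotype and from 2.48 through 3.17 to 3.77 TPM under aCD3. This was a log2 fold change of 1.15 (SE 0.18, adjusted p = 1.52e-05). The groups of all 3 genes stood apart.

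Fan1 (chr7:64345385-64374056), the nuclease recruited by ubiquitinated FANCD2, ran the other way, from 1.73 through 2.78 to 4.56 TPM under isotype and from 1.12 through 1.29 to 1.70 TPM under aCD3. On the log2 scale it changed by -0.69 (SE 0.16, adjusted p = 0.000607) and -0.43 after scaling. The lowest isotype library, F3 at 1.73 TPM, lay just above the highest aCD3 library, F1 at 1.70.

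Both effector checkpoint kinases rose in both scalings, where 14.2% of all tested genes rose in TPM and 30.2% after scaling. Of the 2 upstream kinases 1 fell in both, where 50.7% and 29.8% of all tested genes fell. Chek1 (chr9:36708482-36726658), which stops the cycle when replication stalls, ran from 1.36 through 2.03 to 2.69 TPM under isotype and from 6.70 through 9.99 to 12.4 TPM under aCD3. Its log2 fold change was 1.78 (SE 0.33, adjusted p = 6.12e-05), without overlap. Within SPF aCD3 the female libraries stood at 12.1, 12.4 and 11.9 TPM and the male libraries at 6.70, 7.12 and 8.09 TPM, a split by sex label that was seen in the values and not tested. It was not particular to Chek1. The females also lay above the males in Brca2, Palb2, Rad51ap1, Exo1, Fanci, Nbn and Atm, while in others, such as Brca1, the sexes overlapped. The summed S phase genes stood at 1924, 2211 and 2178 TPM in the females and 1790, 1444 and 1670 TPM in the males. Chek2 (chr5:110839983-110874140), the effector of ATM, ran from 0.366 through 0.699 to 1.14 TPM under isotype and from 1.42 through 1.65 to 1.98 TPM under aCD3. The fit gave a log2 fold change of 0.67 (SE 0.11, adjusted p = 1.53e-05). Its groups did not overlap either.

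Atm (chr9:53437122-53536671), the kinase activated by breaks, ran from 5.86 through 8.03 to 8.76 TPM under isotype and from 3.09 through 3.78 to 5.13 TPM under aCD3. This was a log2 fold change of -0.86 (SE 0.16, adjusted p = 7.36e-05) and -0.52 after scaling, and all aCD3 libraries lay below all isotype libraries. Atr, the kinase of stalled forks, fell by 0.25 in TPM (adjusted p = 0.0419) and stood at 0.05 after scaling. Msh6 (chr17:87975050-87990892), the mismatch sensor, ran from 16.6 through 18.8 to 21.0 TPM under isotype and from 27.8 through 34.7 to 40.1 TPM under aCD3. On the log2 scale it changed by 0.85 (SE 0.15, adjusted p = 2.94e-05). The effector kinases and Msh6 thus moved with the BRCA genes, and Atm moved with Nbn.

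**Figure D4:**
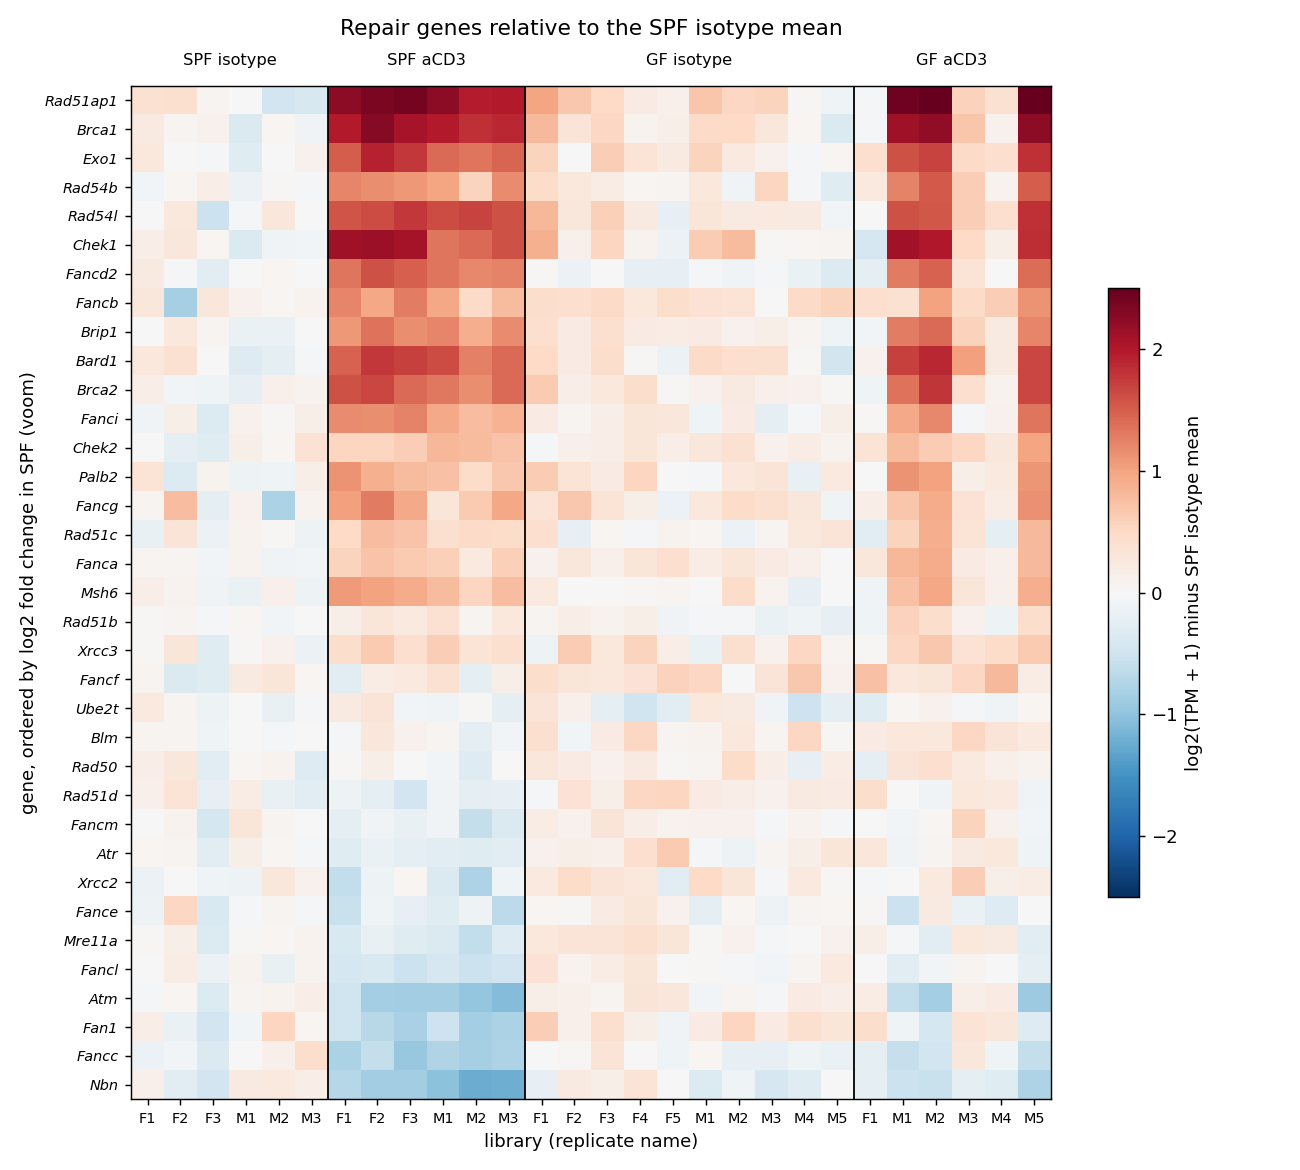
Log2(TPM + 1) of 35 members in 28 libraries, relative to the SPF isotype mean, with genes ordered by their voom fold change in SPF. The upper genes are raised in all 6 SPF aCD3 libraries and in the GF aCD3 libraries M1, M2 and M5; Atm, Fan1, Fancc and Nbn at the bottom are lower in all 6 SPF aCD3 libraries.

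The rest of the pathway, from lists chosen by gene function, was counted the same way in SPF mice. Of 52 other recombination and Fanconi genes tested, 23 rose and 17 fell in TPM, with a median of 0.05, and 30 rose and 7 fell after scaling. Fignl1, an ATPase of recombination, rose from 10.7 ± 4.18 to 56.9 ± 11.8 TPM (SD, n = 6 each), 2.36 on the log2 scale (limma adjusted p = 3.09e-05). Rad52, a mediator of strand annealing, fell from 9.12 ± 0.98 to 3.75 ± 0.516 TPM, a log2 fold change of -1.09 (adjusted p = 9.26e-07). Rev1, a scaffold of translesion synthesis, fell by 1.22.

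Among 19 checkpoint signalling genes 11 rose and 6 fell in TPM, and 12 rose and 0 fell after scaling. H2afx, the histone variant marked at breaks, rose by 2.87, and Cdc25b, a mitotic phosphatase, by 1.86. Trp53bp1, which protects ends from resection, and Atrip, the partner of ATR, fell by 0.55 and 0.41 in TPM and did not pass after scaling, at -0.19 and -0.03. Among 14 end joining genes, the repair route that needs no sister, 1 rose and 8 fell in TPM, with a median of -0.34, near that of all tested genes, and 4 rose and 6 fell after scaling. Shld1, a shieldin subunit that limits resection, fell by 1.23, and Xrcc6, the KU70 subunit, rose by 0.25. Of 6 other mismatch repair genes 0 rose and 3 fell in TPM, and 2 rose and 1 fell after scaling. Of 30 excision repair genes 8 rose and 16 fell in TPM, and 12 rose and 6 fell after scaling, with rises of the replication ligase Lig1 (1.95) and the flap nuclease Fen1 (1.74) and a fall of the lesion sensor Xpc (-1.18). Of 16 p53 targets 2 rose and 9 fell in TPM, and 4 rose and 5 fell after scaling. Read against all tested genes, of which 14.2% rose and 50.7% fell in TPM and 30.2% and 29.8% after scaling, the falls in TPM of the mismatch, excision and p53 lists lay near the background. These lists were not compared with the members by a test.

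Proliferation genes moved with these changes. Of 30 S phase genes 29 rose and 0 fell in TPM, with a median of 1.77, and of 20 mitosis genes 20 rose, with a median of 2.54. After scaling 30 and 20 rose. Mki67, a marker of cycling cells, ran from 37.2 through 51.9 to 71.7 TPM in SPF isotype and from 258.4 through 307.0 to 334.7 TPM in SPF aCD3. Their part in the changes of the repair genes was not tested. Markers of other cells moved too. The summed TPM of 8 B and plasma cell genes ran from 96.6 to 275.4 in SPF isotype and from 3.02 to 10.6 in SPF aCD3, and that of 7 stromal genes from 14.3 to 40.6 and from 2.67 to 4.47, where Col1a2 was at 0 in all 6. The 6 erythroid genes summed to 2.29 to 10.2 and to 0.716 to 1.28 TPM, with 5 of 6 at 0 in all SPF aCD3 libraries. The 11 epithelial genes summed to 7.23 to 25.6 and to 5.19 to 12.3 TPM, with Fabp1 at 0 under aCD3. The 11 myeloid genes summed to at most 2.82 TPM in SPF isotype and to 0.384 to 94.6 in SPF aCD3, the highest being the library F1, without which 25 members passed. The 2 CD8 genes summed to 5.68 to 13.5 and to 9.75 to 23.8 TPM. The part of these cells in the result was not tested.

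In GF mice fewer members passed the test than in SPF mice, and those that passed on the deposited TPM were all higher after aCD3. Of 34 tested, 8 passed as higher after aCD3 (2.46% of all tested genes) and 0 as lower (4.61%), at adjusted p from 0.0481 to 0.0496. They were Brca1, Bard1, Rad54l, Rad54b, Exo1, Fancd2, Brip1 and Chek2. The unadjusted limma p was under 0.05 for 15 members higher and 3 lower, a count that was not made over all tested genes. After median-of-ratios scaling 13 rose (5.62%) and 0 fell (4.02%), and voom called 7 higher (2.64%) and 0 lower (2.4%), with 6 genes called in all 3 fits: Bard1, Rad54b, Exo1, Fancd2, Brip1 and Chek2. All 19 members that rose in SPF had a positive log2 fold change in GF, and all 8 that fell had a negative one, on the deposited TPM, where the median of all tested genes was -0.15. After scaling Mre11a and Atr turned positive in GF, at 0.02 and 0.09. How many of all genes called in SPF kept their sign in GF was not counted, so this agreement cannot be set against a background. No member's GF groups stood apart, higher or lower, where 0.0328% of tested genes did so in the higher and 0.0328% in the lower direction.

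**Figure D5:**
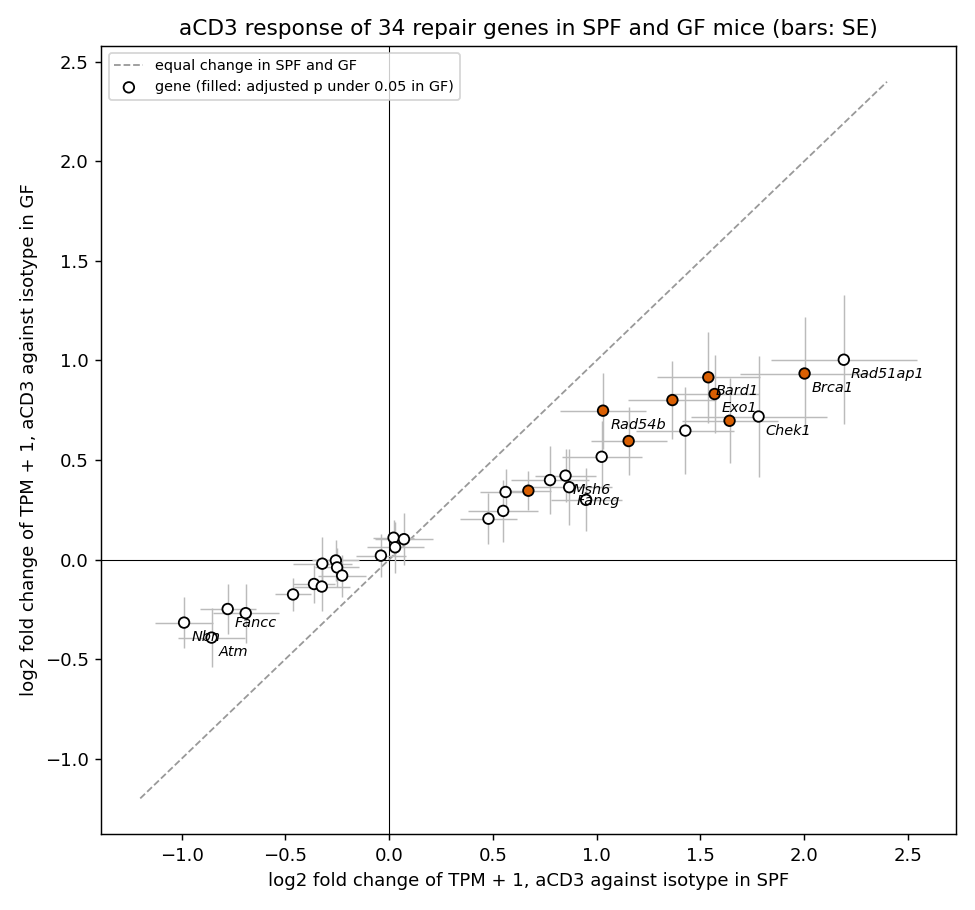
Log2 fold change of TPM + 1 for aCD3 against isotype in SPF (x axis) and in GF mice (y axis) for 34 members, with SE bars; filled points have an adjusted p under 0.05 in GF, and the dashed line marks equal changes. Rad51ap1 stands at 2.19 in SPF and 1.00 in GF, and Nbn at -0.99 and -0.32.

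The 6 GF aCD3 libraries differed widely. Brca1 stood at 8.73, 9.48 and 9.56 TPM in the libraries M1, M2 and M5, and at 1.18, 1.43 and 2.65 TPM in F1, M4 and M3, while the 10 GF isotype libraries ran from 0.758 through 1.77 to 2.97 TPM. The first 3 lay within the range of SPF aCD3 and the others within the range of GF isotype. In GF it rose by 0.93 on the log2 scale (SE 0.29, limma adjusted p = 0.0496). Rad51ap1 stood at 9.80, 10.8 and 10.2 TPM in M1, M2 and M5 and at 0.951 TPM in F1 to 1.96 TPM in M3, against 0.839 to 2.93 TPM in GF isotype. Its log2 fold change of 1.00 (SE 0.32) did not pass (adjusted p = 0.0537).

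Exo1 stood at 4.22, 4.63 and 5.21 TPM in M1, M2 and M5 and at 1.34 in F1, 1.34 in M4 and 1.42 in M3, against 0.696 to 1.66 TPM in GF isotype, with a log2 fold change of 0.83 (SE 0.20, adjusted p = 0.0481). Fancd2 stood at 3.30, 3.90 and 3.61 TPM in M1, M2 and M5 and at 0.51, 0.746 and 1.22 TPM in F1, M4 and M3, against 0.387 to 0.792 TPM in GF isotype. Its log2 fold change was 0.80 (SE 0.20, adjusted p = 0.0481). In these genes M3 lay highest of the lower 3 libraries. Bard1 stood at 6.43 TPM in M3, between 2.91 and 3.23 TPM in F1 and M4 and 10.5 to 12.5 TPM in M5, M1 and M2.

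On the deposited TPM, Atm and Nbn, which fell in SPF, were lower in M1, M2 and M5 than in the other GF aCD3 libraries. The factors that median-of-ratios scaling divides by were 0.828 to 0.890 in M1, M2 and M5 and 1.14 to 1.23 in the others. Divided by these factors, Atm still stood lower in M1, M2 and M5, and Nbn did not. Atm stood at 4.65, 3.80 and 3.63 TPM in M1, M2 and M5 and at 8.85, 8.93 and 8.58 TPM in F1, M4 and M3, against 7.33 to 9.83 TPM in GF isotype. The fit gave a log2 fold change of -0.39 (SE 0.15, adjusted p = 0.0741). Nbn was less divided, at 5.25, 5.14 and 4.32 TPM in M1, M2 and M5 and at 6.68, 6.31 and 6.76 TPM in F1, M4 and M3, against 5.73 to 10.5 TPM in GF isotype, with a log2 fold change of -0.32 (SE 0.13, adjusted p = 0.0897). Mki67 stood at 367.7, 447.4 and 310.7 TPM in M1, M2 and M5 and at 46.5, 67.6 and 159.7 TPM in F1, M4 and M3. Histone genes took 23.1% to 25.97% of TPM in M1, M2 and M5 and 5.39%, 6.43% and 7.46% in F1, M4 and M3. The summed B and plasma cell genes were 8.98, 9.79 and 8.34 TPM in M1, M2 and M5 and 21.4, 33.6 and 102.0 TPM in F1, M4 and M3. The summed stromal genes were 3.33 to 5.01 TPM in M1, M2 and M5 and 9.49 to 11.5 TPM in the others, against 7.47 to 13.5 in GF isotype. The summed CD8 genes were 9.59 to 13.0 TPM in M1, M2 and M5 and 3.47 to 7.56 TPM in the others, against 1.25 to 8.54 TPM in 9 GF isotype libraries and 61.2 TPM in M4. The summed epithelial genes were 6.68 to 8.16 TPM in M1, M2 and M5 and 12.8 to 32.4 TPM in the others, against 6.85 to 70.9 in GF isotype. Myeloid genes went with the sample number in the column name, at 0.101 to 1.22 TPM in the GF libraries numbered 25 to 33 and 3.88 to 12.001 TPM in those numbered 48 to 54. The part of these in the result was not tested.

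These GF calls lay at the edge of the threshold. With any 1 of 25 of the 28 libraries left out, SPF libraries included, no member passed. Without the GF aCD3 libraries F1, M3 and M4, 17, 18 and 16 passed, of which 1, 3 and 1 were lower. How many of all tested genes passed in these fits was not counted. The column names of the GF libraries carry sample numbers from 25 to 33 or from 48 to 54, with aCD3 in both ranges. Within the lower range the change of Brca1 was 1.26 and that of Exo1 0.95, and within the higher range 0.73 and 0.73, with no member passing in either range alone.

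Under isotype, no member passed between GF and SPF on the deposited TPM. Of 34 members 0 were called higher (6.42% of all tested genes) and 0 lower (0.755%) by limma, and 0 in either direction after median-of-ratios scaling (0.517% and 1.16%) or in voom. Other settings called 4 members higher (TPM without Rn45s and histone genes), 1 higher (only the groups compared) and 1 higher (array weights). The shares of all tested genes under these settings were not counted. The unadjusted limma p was under 0.05 for 4 members higher and 0 lower, again not counted over all tested genes. Log2 fold changes ran from -0.12 for Fancd2 to 0.42 for Rad51ap1, and the smallest adjusted p was 0.0817, for Fancf. A p that misses the threshold does not show equal levels: the SE of the Brca1 difference, 0.28, was as large as the difference itself.

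Under aCD3, which members passed between GF and SPF depended on the scaling, and the sign of Rad50, Blm, Fance and Fancf turned with it. In TPM 12 were higher in GF (48.9% of all tested genes) and 4 lower (4.46%), while after scaling 1 was higher (16.1%) and 13 lower (16.7%). The median of all tested genes was 0.34 in TPM and 0.00 after scaling. A set of 5 members was called the same way in both. Fan1 was higher in GF, at 0.71 in TPM and 0.45 after scaling. Brca1 (-0.79 and -1.12), Rad54l (-0.68 and -1.01), Fancd2 (-0.69 and -0.97) and Msh6 (-0.36 and -0.76) were lower in GF. None of these 4 passed as lower in a fit to only the groups compared, with array weights, or without the GF aCD3 library F1. Only 1 member passed as lower with the replicate block, without M3 or without M4. The shares of all tested genes in these fits were not counted. In Brca1 the libraries M1, M2 and M5 stood within the SPF aCD3 range of 6.96 to 9.92 TPM, and the 3 other GF aCD3 libraries below it. SPF samples are numbered 1 to 12 and GF samples 25 to 54, so flora and sample number range cannot be told apart.

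The test of the difference between the aCD3 effects in GF and SPF called 1 member. Nbn had a difference of 0.67 (SE 0.19, adjusted p = 0.049 by limma), its change being -0.99 in SPF and -0.32 in GF; 2.44% of all tested genes were called higher and 1.04% lower, and 0 members lower. The unadjusted limma p was under 0.05 for 4 members higher and 10 lower, also not counted over all tested genes. After scaling Nbn was higher at 0.48 (5.3% of tested genes called higher), and Rad54l and Fancb were lower (6.03%) at -1.18 and -0.82, from -0.94 (adjusted p = 0.0664) and -0.65 (adjusted p = 0.0769) in TPM. For Brca1 the difference was -1.07 (SE 0.42, adjusted p = 0.0954). No member passed with any 1 of 22 of the 28 libraries left out. Without the GF aCD3 libraries M1, M2 and M5, 7, 10 and 12 passed, of which 5, 8 and 9 had a lower log2 fold change in GF. The calls among all tested genes in these fits were not counted.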

How the data were processed

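The deposited table holds TPM, which per the file headers the authors computed with HOMER's analyzeRepeats.pl over mm10 RefSeq genes with condensed transcripts. Column names carry STAR's default output name; its settings, read filters and use of strand are not given in the sources used here. The labels name both a total RNA kit and polyA RNA. Of its TPM columns, 26 match no sample and were not used. TPM times length gave whole reads in 100% of low values (tolerance 0.1 read).

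Groups come from the titles, which do not say that replicates are separate animals. The p-values measure the spread between these samples, pooled per gene over the 4 groups. The groups were not equally spread: the SD of Brca1 was 4.15 TPM in GF aCD3 and 0.299 to 1.04 TPM in the others. An SE in one comparison therefore also holds the spread of groups outside it. The test was limma 3.58.1 (R 4.3.3), two-sided, on log2(TPM + 1), with group means and sex over 28 libraries and a trended prior; log2(TPM + 1) understates changes of low genes. Genes with TPM of at least 1 in 6 libraries entered (12182). Voom needed at least 10 reads in 6 libraries (13396 genes). The test was tested on simulated data. Python 3.11.15 with pandas 2.3.3 was used. Alternatives changed the pseudocount, filter, scaling, samples, covariates, weights and call rule. The members given in full were the 2 per role with the largest change past the threshold in both scalings. In roles with 4 or fewer, the others past it in both were also given in full, except Fanci. Fancc was added in full after its values were seen. Other members were given by single values, and at most 4 genes were named per other list. The members and lists were chosen with earlier results of these data known. Promoters are from RefSeq (GRCm38.p6). A gene of the pathway lists is not reported here.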

Additional observations from a re-analysis of the deposited data

Results flagged for a closer look

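In 140 sets of 1 gene in 1 group, 7 held a library standing apart from the others by Dixon's criterion, and chance gives about 7 (1 in 20). Mre11a was lowest in SPF isotype F3, at 5.01 TPM, with the next library at 6.78. This library had the lowest median-of-ratios factor of its group, 0.857, and Rn45s took 22.9% of its TPM. Fancb was 0 TPM in SPF isotype F2, with the next at 0.843. Fanca was lowest in SPF aCD3 M2, at 1.69 TPM, with the next at 2.32. Atm was highest in SPF aCD3 F1, at 5.13 TPM, with the next at 3.78. Fancc was highest in GF isotype F3, at 5.18 TPM, with the next at 4.13. Blm and Fancm were both highest in GF aCD3 M3, at 7.90 and 8.06 TPM, with the next at 6.76 and 5.69. The library M3 had the largest median-of-ratios factor of all 28 libraries, 1.23. Divided by these factors, Blm was not highest in M3. The flags used the deposited TPM.

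The aCD3 effect on Nbn differed between GF and SPF by 0.67 on the log2 scale (limma adjusted p = 0.049). The call was lost with a pseudocount of 5, no filter, quantile normalization, no sex term, the replicate block or TPM without Rn45s and histone genes, and with any 1 of 22 of the 28 libraries left out.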

How the results depend on the processing

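In SPF, the 27 calls became 12 with a TPM of at least 5 in 6 libraries, since fewer members were tested, and 11 with an absolute log2 change of 1 or more; the other alternatives gave 25 to 29, also with each library left out. Scaling reversed Mre11a (0.0057 with quantile normalization), Rad50 (0.34 median-of-ratios, 0.38 voom), Fance (0.035 quantile) and Atr (0.047 median-of-ratios, 0.11 quantile, 0.062 voom). In GF, the 8 calls became 0 with a pseudocount of 0.1, no filter, only the groups compared, the replicate block, either sample number range alone or an absolute log2 change of 1 or more; 5 with a TPM of at least 5, 13 median-of-ratios, 15 without sex, 16 with array weights (whose fit did not fully converge) and 14 with sample number range as a covariate (2, 1 and 1 of these last 3 lower), and 0 to 18 with a library left out. GF against SPF isotype gave 4 without Rn45s and histone genes, 1 with only the groups compared and 1 with array weights, all higher. GF against SPF aCD3, 16 calls, gave 10 with only the groups compared and 6 with array weights, with 0 lower in either, and 0 with an absolute log2 change of 1 or more. It gave 12 to 23 with a library left out, with 0 lower without GF aCD3 F1 and 10 or 11 lower without M1, M2 or M5. The difference of effects, 1 call, gave 0 with a pseudocount of 5, no filter, without Rn45s and histone genes, no sex term, the replicate block or an absolute log2 change of 1 or more, 3 median-of-ratios, 4 voom, and 1 with quantile normalization, which was lower and not Nbn, and 0 to 12 with a library left out, the highest being 7, 10 and 12 without GF aCD3 M1, M2 and M5, of which 5, 8 and 9 were lower. Among these alternatives, calls over all tested genes were counted only for median-of-ratios scaling and, within SPF and within GF, for voom. Other causes of these shifts were not tested.

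The replicate numbers do not pair the samples: 4 of 12 same-numbered pairs correlated above 0.1, and 1 of 12 correlated best with its own number. With the replicate block SPF gave 27 calls, GF 0, GF against SPF isotype 0, GF against SPF aCD3 11, of which 1 was lower, and the difference of effects 0. Reads limit the low members most: Fancb drew 0 reads in 1 library.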
